A study of Mus musculus with 30 samples.

Results

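The livers of adolescent female CD-1 mice, an outbred stock, were compared after gestational exposure to cadmium chloride (CdCl2, 500 ppb) and without it. The series holds 30 liver RNA-seq libraries from 3 ages, and the 8 described here are all of its female libraries from postnatal day (PND) 42, with 4 labelled as exposed to CdCl2 and 4 as controls. A further 8 libraries, from 4 control and 4 exposed males of the same age, were read and scaled in the same table and serve as a reference. The labels give no genotype beyond the stock, and say neither which animals were litter mates nor how or for how long the exposure was given. All 13091 genes in the table were tested. Levels are given as normalised read counts, in the order control replicates 2, 3 and 4, the unnumbered control, then exposed replicates 1 to 4. A level written as mean ± SD is over 4 libraries. Differences between the groups are exposed over control, as log2 fold changes (± SE), and a gene is said to have risen or fallen where its adjusted p was under 0.05 over all genes tested. Since each sample is a piece of bulk tissue, fewer cells of a type and less RNA per cell cannot be told apart.

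Cadmium is a metal that accumulates in the liver, where it is bound by metallothioneins, small thiol-rich proteins whose genes are switched on by the metal-sensing transcription factor MTF1. Adult mouse liver is also strongly sex-dependent. Females receive near-continuous growth hormone and males receive it in pulses, and through STAT5b and the repressors BCL6 and CUX2 this sets the levels of many cytochrome P450, sulfotransferase and urinary protein genes. PND42 falls in the weeks around puberty in which that pattern is established.

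The unnumbered control column carries a tag that the labels give to a younger control animal, so that its group rests on the column name alone. Read totals over the table were 28.7 to 40.1 M in control and 30.2 to 35.4 M in exposed females. The sex labels fitted the libraries: the X-inactivation RNA Xist was at 33939.8 to 58619 in control females and 41098 to 53285 in exposed females against 33.6 to 53.8 in males, and the Y-linked Ddx3y at 0 to 0.916 in control females and 0 to 2.36 in exposed females against 3018 to 4279 in males. Each sample had an RNA integrity number of at least 7 per the labels. Alb, the albumin gene of hepatocytes, stood at 2575112, 3220267, 2849775 and 2264382 normalised read counts in the control libraries and 1448530.0, 1258412, 847178 and 1718657 in the exposed libraries. Every exposed library was below every control, and Alb fell with a log2 fold change of -1.08 ± 0.30, adjusted p = 0.00793.

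The groups differed in 3 measures of the RNA itself, which accompany every gene group below. Transcripts of the mitochondrial genome made up 8.49% ± 3.15 of the reads in controls and 27.6% ± 6.29 in exposed females (SD, n = 4 each). Genes with more than 300 kb of intron had a mean log2 value of 7.46 ± 0.20 in controls and 8.93 ± 0.16 in exposed females. Malat1, a long noncoding RNA retained in the nucleus, stood at 31068, 20061, 36008 and 30413 normalised read counts in the control libraries and 101019, 85988, 75752 and 76894 in the exposed libraries (1.55 ± 0.30, adjusted p = 0.000715). In each measure all 4 exposed libraries lay above all 4 controls (by an exact two-sided permutation test p = 0.0286, the lowest value that this design can give, and 0.0286 after adjustment for 3 measures). The male libraries spanned much of the same range, with 9.03% to 29.7% of mitochondrial reads, long-gene means of 7.18 to 8.45 and log2 values of Malat1 of 14.17 to 15.96. The exposed females overlapped the males in mitochondrial share and lay above all 8 males in the long-gene mean (8.76 to 9.12) and in Malat1 (16.21 to 16.62). Because each measure separates exposed from control females, the measures and the exposure cannot be told apart within these 8 libraries.

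**Figure D1:**
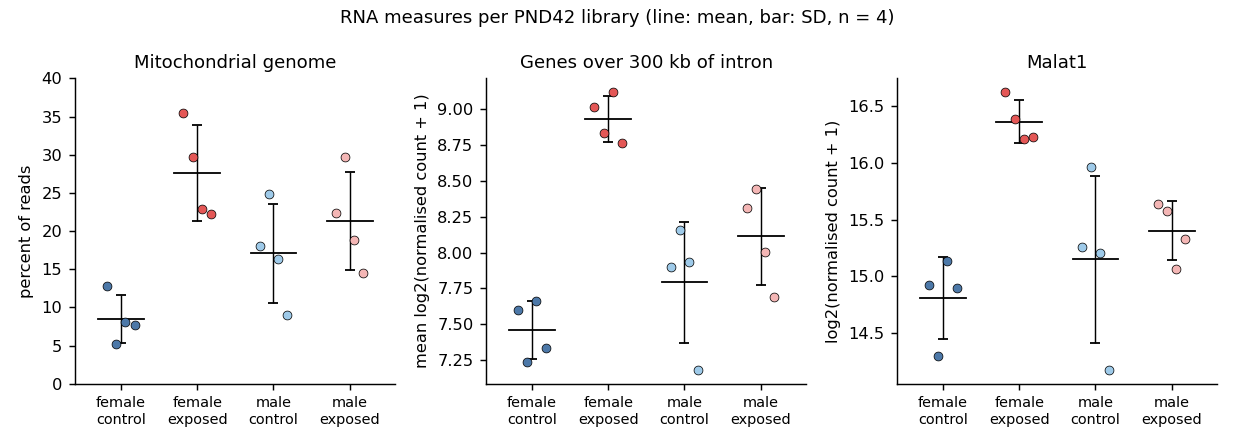
Share of reads from the mitochondrial genome, mean log2 value of genes with over 300 kb of intron, and log2 value of Malat1 in each PND42 library, with the mean (line) and SD (bar) of 4 libraries a group. The 4 exposed females lie above the 4 control females in each panel, and the males lie between or across them.

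With the deposited scaling 5269 of the 13091 genes differed between exposed and control females (40.2% of those tested). Of these 2468 rose (18.9%) and 2801 fell (21.4%), and 1146 rose and 1291 fell by at least 2-fold. Every exposed library was above every control for 2921 genes (22.3%) and below every control for 3082 (23.5%). In males of the same age 0 genes passed (0.0%), with limma and with limma voom, and 932 and 733 had an unadjusted p under 0.05, against 6366 in females with limma. The balance of directions depended on the mitochondrial reads: when these were left out of the library totals used for scaling, the median gene moved from 0.00 to 0.39, and 4251 genes rose and 1470 fell (74.3% of calls upward in place of 46.8%). Counts under that scaling are given beside those of each gene list below and are called rescaled.

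The genes that rose were longer and had lower counts in controls than the genes that fell. The median intron length was 55.9 kb for genes that rose, 11.7 kb for those that fell and 18.8 kb for all genes. Of 338 genes with more than 300 kb of intron 253 rose and 1 fell, with a median log2 fold change of 1.41 (0.29 in males). Of 1487 genes with under 3 kb 135 rose and 458 fell (median -0.28, and -0.13 in males). By control level, the highest quintile of genes had 315 that rose and 1127 that fell, and the lowest quintile 452 and 89. Long intergenic noncoding RNAs rose in 62 of 272 and fell in 11, antisense transcripts rose in 51 of 326 and fell in 10, and processed pseudogenes, which resemble spliced messages, rose in 7 of 88 and fell in 32. Reads of antisense genes cannot be told from those of the opposite strand, since no source used here states the strand setting of the counting.

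**Figure D2:**
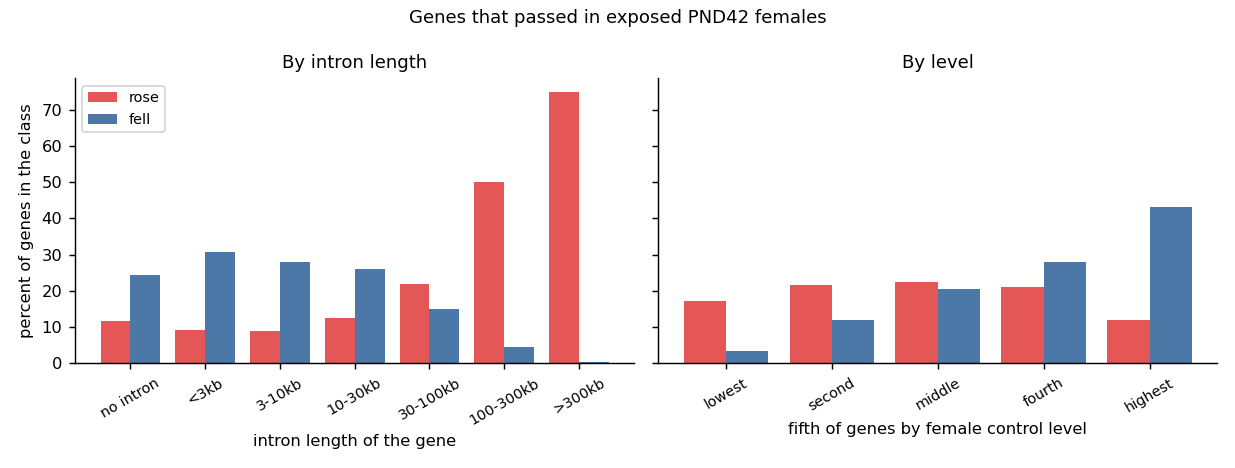
Percent of genes that rose (red) or fell (blue) in exposed PND42 females, by total intron length of the gene and by quintiles of the female control level. In the longest class 74.9% rose and 0.296% fell, and in the most abundant quintile 12.0% rose and 43.0% fell.

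Very long genes had some of the most regular differences. Naaladl2 (chromosome 3, 23798102 to 25144261), a gene of a peptidase-like protein with 1336 kb of intron, stood at 654, 578, 527 and 637 normalised read counts in the control libraries and 5995, 4554, 5560.1 and 3631 in the exposed libraries. The exposed libraries were all far above the highest control. Its log2 fold change was 3.02 ± 0.19, adjusted p = 5.49e-08. Nkain2, which encodes a membrane protein that interacts with the sodium pump, went from 92.4 ± 26.8 to 1054 ± 407 (3.48 ± 0.27, adjusted p = 5.73e-07). Fhit, the gene of a dinucleotide hydrolase at a common fragile site, went from 591 ± 134 to 3912 ± 261 (2.75 ± 0.21, adjusted p = 4.55e-07). Lncpint, a long noncoding RNA, stood at 277, 76.9, 291 and 199.8 normalised read counts in the control libraries and 2749.8, 2647, 2597 and 1866 in the exposed libraries (3.69 ± 0.53, adjusted p = 0.000122). Tekt3, a gene of sperm flagella that is near 0 in control liver, stood at 2.83, 2.65, 5.80 and 4.58 against 79.1, 52.7, 69.8 and 42.5 normalised read counts in control and exposed libraries (3.65 ± 0.66, adjusted p = 0.000454).

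Genes that are made mostly in female livers included the lowest fold change of all genes tested. Of 46 measured female-biased genes 22 fell and 1 rose, with a median log2 fold change of -1.18 (rescaled, 3 rose and 18 fell). All 4 measured female-biased Cyp3a genes fell (log2 fold changes of -6.85 to -3.30), as did 4 of 5 Sult2a genes and both measured Sult3a genes, which encode sulfotransferases of steroids and bile acids. Of 4 female-biased Cyp2c genes 3 fell, and none of 3 female-biased Cyp2b genes passed. Members of these families have near-identical copies, so that reads may be shared between them and the value of each single copy is uncertain.

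The promoters of 3 of the Cyp3a copies are shown because the 3 genes fell together. Most of this stretch is not transcribed, so that its identity does not show how well reads can be assigned to the copies. They are from RefSeq (GRCm38.p6, minus strand, 250 bases before to 50 after the gene start): chr5:145469674-145469973 for Cyp3a16, chr5:145720087-145720386 for Cyp3a41a and chr5:145805825-145806124 for Cyp3a44. Capitals mark the 19 bases of Cyp3a41a and the 16 of Cyp3a44 that have no identical partner in a global alignment with Cyp3a16, to which they are 92.4% and 93.4% identical.
Cyp3a16: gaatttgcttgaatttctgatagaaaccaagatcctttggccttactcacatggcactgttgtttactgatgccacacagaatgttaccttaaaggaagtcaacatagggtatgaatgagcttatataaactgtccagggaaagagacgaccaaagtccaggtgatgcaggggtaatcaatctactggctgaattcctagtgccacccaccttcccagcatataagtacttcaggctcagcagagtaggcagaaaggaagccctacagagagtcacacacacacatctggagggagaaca
Cyp3a41a: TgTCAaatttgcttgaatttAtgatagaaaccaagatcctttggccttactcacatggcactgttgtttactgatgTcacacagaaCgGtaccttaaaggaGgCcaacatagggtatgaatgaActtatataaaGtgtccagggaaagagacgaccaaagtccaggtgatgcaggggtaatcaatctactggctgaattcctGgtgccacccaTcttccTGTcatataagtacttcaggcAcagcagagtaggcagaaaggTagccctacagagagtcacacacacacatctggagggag
Cyp3a44: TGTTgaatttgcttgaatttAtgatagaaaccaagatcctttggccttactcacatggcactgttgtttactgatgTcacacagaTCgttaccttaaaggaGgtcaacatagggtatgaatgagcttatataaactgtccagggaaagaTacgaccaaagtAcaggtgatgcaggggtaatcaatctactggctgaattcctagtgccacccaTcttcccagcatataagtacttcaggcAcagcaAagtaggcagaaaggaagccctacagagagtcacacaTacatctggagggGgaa

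Cyp3a16, a steroid- and drug-oxidising P450 of young and female livers, stood at 7293, 3575, 1447 and 5837 normalised read counts in the control libraries and 129, 28.7, 2.16 and 100.1 in the exposed libraries. The 2 groups were far apart, and the lowest exposed library, replicate 3, was within the male range of 0 to 3.97. The log2 fold change was -6.85 ± 0.91, adjusted p = 4.98e-05. Cyp3a41a stood at 4524, 9907, 1799.7 and 7058 against 406, 144, 6.47 and 289.9 (-5.52 ± 1.41, adjusted p = 0.00768). Cyp3a44, named after its values were seen, stood at 7817, 15426, 13792 and 15594 against 1654, 1576, 524 and 2029.7 (-3.30 ± 0.66, adjusted p = 0.00135). Exposed replicate 3 was again the lowest of its group in both. Cyp3a44 in exposed females remained above the male range of 5.17 to 56.9.

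Sult2a1, which sulfates steroids and bile acids, stood at 819, 3994, 1196 and 2117 normalised read counts in the control libraries and 253, 10.4, 5.76 and 128 in the exposed libraries (-5.41 ± 0.92, adjusted p = 0.00027). Sult3a2 stood at 2016, 1306, 444 and 2413 against 56.6, 21.6, 10.1 and 30.7 (-5.64 ± 0.80, adjusted p = 6.91e-05). A1bg, a plasma protein gene of female mouse liver, stood at 85550.1, 62524, 35614 and 48943 normalised read counts in the control libraries and 8304, 5678, 1315 and 6422 in the exposed libraries (-3.63 ± 0.54, adjusted p = 0.000166). All exposed libraries of A1bg were below all controls and far above the male range of 13.8 to 62.8. Cux2 and Cyp2b9 did not pass. Cux2, the transcription factor that represses male-biased genes in females, stood at 3309, 297, 2086 and 1249 against 2469.9, 2789, 1239 and 2108 (0.70 ± 0.81, adjusted p = 0.515). Cyp2b9, another female-specific P450, stood at 14298, 17758, 11738 and 17481 against 18206, 20758, 11829 and 17930.5 (0.15 ± 0.89, adjusted p = 0.905). Both were named after their values were seen. In each of them the exposed and control libraries overlapped and lay above all males (13.1 to 193 and 17.0 to 497). The female-biased list has a median intron length of 31.1 kb, longer than that of all genes. Over all 3309 genes with 30 to 100 kb of intron the median log2 fold change was 0.15. The part of the RNA measures in the falls of this list was not tested.

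Of 34 measured male-biased genes 3 rose (8.82%, against 18.9% of all genes) and 8 fell (23.5%, against 21.4%). The median was -0.20 and turned to 0.19 with the other scaling (rescaled, 5 rose and 7 fell). Susd4, a complement regulator, rose from 85.5 ± 42.3 to 347 ± 219 (1.94 ± 0.43, adjusted p = 0.00219), against 296 to 1029 in males. Bcl6, the repressor that holds down female-biased genes in males, rose from 388 ± 191 to 1076 ± 301 (1.55 ± 0.47, adjusted p = 0.0153), and the exposed females reached into the male range of 788 to 3251. The urinary protein gene Mup3, one of many near-identical Mup genes, fell from 113584 ± 23511 to 39415 ± 6223 (-1.52 ± 0.25, adjusted p = 0.000187). C8b, a subunit of the complement attack complex, fell from 5761 ± 702 to 1641 ± 456 (-1.84 ± 0.28, adjusted p = 0.000122).

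Of 19 genes of the growth hormone axis 3 rose and 4 fell (rescaled, 7 rose and 3 fell). With the deposited scaling these are 15.8% and 21.1%, near the 18.9% and 21.4% of all genes. The receptor gene Ghr stood at 16848, 16751, 16436 and 16569 normalised read counts in the control libraries and 31453, 25981, 45039 and 29533 in the exposed libraries (0.95 ± 0.19, adjusted p = 0.00103). The 4 controls were nearly equal and every exposed library was above them and above or within the male range of 21996 to 29460.0. The oestrogen receptor gene Esr1 rose from 2741 ± 1097 to 5377 ± 939 (1.05 ± 0.30, adjusted p = 0.0114), with 1 exposed library just below the highest control. The signal transducer Stat5b (0.39 ± 0.18, adjusted p = 0.105) and the hormone's main product Igf1 (0.46 ± 0.25, adjusted p = 0.149) did not pass with the deposited scaling. Without mitochondrial reads in the scaling both rose, Stat5b by 0.77 (adjusted p = 0.0159) and Igf1 by 0.84 (adjusted p = 0.00693), and Stat5b also passed in the fit of the female libraries alone (adjusted p = 0.0344). Binding proteins of insulin-like growth factor fell, Igfbp3 from 1949 ± 388 to 503 ± 173 (-2.01 ± 0.29, adjusted p = 7.13e-05) and Igfbp4 from 46767 ± 4460.5 to 12762 ± 1988 (-1.88 ± 0.25, adjusted p = 4.21e-05). Ghr has 257 kb and Esr1 380.4 kb of intron, Igfbp3 4.71 kb and Igfbp4 8.73 kb. A relation of direction to intron length within this list was not tested.

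**Figure D3:**
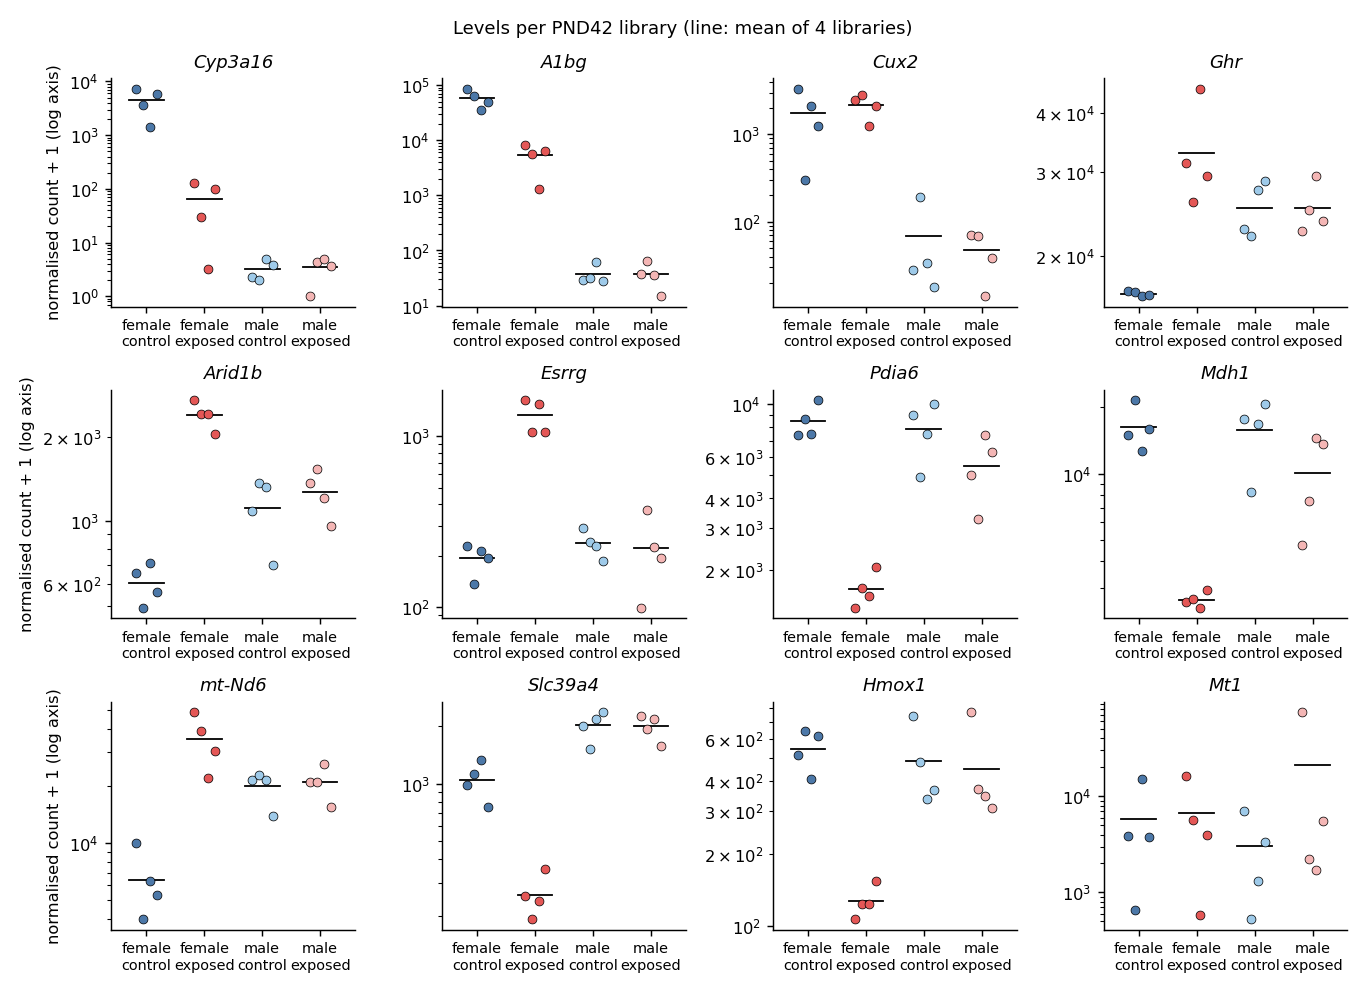
Normalised read count plus 1 (log axis) of 12 genes in each PND42 library, with the mean of 4 libraries a group. A1bg in exposed females lies between the control females and the males, Cyp3a16 does so in 3 of the 4 exposed libraries, Cux2 and Mt1 overlap between the female groups, and Esrrg, Mdh1 and Slc39a4 in exposed females lie outside the range of the other 3 groups.

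Among RNAs that stay in the nucleus and among chromatin genes the members that passed all rose. Of 22 nuclear noncoding RNAs and small nucleolar RNA hosts 10 rose and 0 fell (median 0.74; rescaled, 12 rose and 0 fell). Of these 22 RNAs 12 did not pass, Xist among them, and 6 had a log2 fold change below 0. The count that rose was 5 without control replicate 3. Neat1, which builds nuclear paraspeckles, stood at 8871, 3552, 14014 and 5889 normalised read counts in the control libraries and 24314, 27313, 50285 and 28213 in the exposed libraries (2.12 ± 0.51, adjusted p = 0.00398). Kcnq1ot1, an imprinted antisense RNA, went from 281 ± 79.5 to 1006 ± 114 (1.88 ± 0.38, adjusted p = 0.00104). Snhg14, the long host transcript of the Prader-Willi region, went from 100.9 ± 30.9 to 338 ± 26.0 (1.78 ± 0.28, adjusted p = 0.000157). Of 43 chromatin remodellers and histone modifiers 33 rose and 0 fell (median 0.79; rescaled, 41 rose and 0 fell). These are large proteins with long genes, with a median of 80.0 kb of intron. Arid1b of the SWI/SNF remodeller stood at 654, 491, 712 and 558 normalised read counts in the control libraries and 2694, 2405, 2412 and 2045 in the exposed libraries (1.99 ± 0.21, adjusted p = 1.03e-05). All exposed libraries lay above all control females and above the male range of 699 to 1540.0. Chd2, an ATP-dependent remodeller, rose from 1032 ± 103 to 2651 ± 426 (1.35 ± 0.21, adjusted p = 0.000113).

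Of 55 measured splicing genes 16 rose (29.1%, against 18.9% of all genes) and 13 fell (23.6%, against 21.4%). The median of -0.05 turned to 0.34 with the other scaling (rescaled, 22 rose and 6 fell). The kinase Clk1, which phosphorylates SR proteins and keeps part of its transcripts in the nucleus with introns retained, rose from 3367 ± 604 to 10319.7 ± 1304 (1.62 ± 0.23, adjusted p = 7.37e-05). The splicing factor Rbm39 rose from 5994 ± 334 to 15721 ± 1539 (1.39 ± 0.20, adjusted p = 7.63e-05). Both have short introns, of 5.75 and 26.1 kb in total. Among 11 core proteins of the small nuclear ribonucleoproteins 7 fell and 1 rose, with Snrpb at 879.9, 1481, 980.3 and 1042 against 249, 275, 260.4 and 266 (-2.03 ± 0.23, adjusted p = 1.57e-05), and among 10 SR proteins 1 fell and 3 rose. Of 13 histone genes 7 fell and 0 rose (rescaled, 1 rose and 5 fell), among the falls H3f3b, the gene of the replacement histone H3.3, from 4093 ± 317 to 1630.4 ± 238 (-1.33 ± 0.20, adjusted p = 8.59e-05).

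Among genes of secreted proteins and of the machinery that folds them more fell than rose. Of 42 plasma protein genes 31 fell and 1 rose (median -0.93; rescaled, 3 rose and 21 fell). Ahsg, which encodes the mineral-binding protein fetuin-A, stood at 310834, 315778, 382324 and 247933 normalised read counts in the control libraries and 87305, 69442, 76009.7 and 133831 in the exposed libraries (-1.81 ± 0.26, adjusted p = 7.62e-05). The gamma chain of fibrinogen, Fgg, went from 88661 ± 12037 to 19986 ± 10095 (-2.27 ± 0.33, adjusted p = 8.62e-05), and all 3 fibrinogen genes fell. The 1 member that rose with the deposited scaling was Klkb1, the gene of plasma prekallikrein (8229 ± 3278 to 14954 ± 2314, 0.94 ± 0.25, adjusted p = 0.00672). Complement genes fell in 13 and rose in 3 of 26 (rescaled, 6 rose and 11 fell), with the central component C3 falling from 181697 ± 44356 to 72152 ± 4387 (-1.30 ± 0.28, adjusted p = 0.00175) and the inhibitor Cfi from 20482 ± 2476 to 5138 ± 817 (-2.0 ± 0.26, adjusted p = 3.77e-05).

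In the endoplasmic reticulum, 25 of 30 chaperone and unfolded protein response genes fell and 0 rose (median -1.003; rescaled, 0 rose and 15 fell). Pdia6, a disulfide isomerase, stood at 7424, 8599.9, 7441 and 10342 normalised read counts in the control libraries and 1387, 1688, 1553 and 2058 in the exposed libraries (-2.34 ± 0.25, adjusted p = 1.2e-05). Heat shock chaperones fell in 13 of 22 and rose in 1, with a median of -1.20 (rescaled, 1 rose and 7 fell). The constitutive cytosolic Hspa8 went from 27954 ± 12255 to 7524 ± 1117 (-1.77 ± 0.47, adjusted p = 0.00675) and the mitochondrial chaperonin Hspd1 from 13234 ± 5078 to 3683 ± 432 (-1.77 ± 0.34, adjusted p = 0.000757). Lysosomal genes fell in 21 of 30 and rose in 2 (median -1.03; rescaled, 5 rose and 18 fell). The membrane protein Lamp1 went from 14429 ± 2507 to 3071 ± 422 (-2.23 ± 0.28, adjusted p = 2.92e-05) and the cathepsin inhibitor Cstb from 792 ± 97.2 to 134 ± 33.8 (-2.58 ± 0.29, adjusted p = 1.57e-05). The cathepsin D gene Ctsd, named after its values were seen, was unusually variable among controls, at 121, 943, 110.2 and 308 against 19.2, 13.6, 4.32 and 11.0 (-4.42 ± 0.58, adjusted p = 4.22e-05), and its highest exposed library was below its lowest control. Members of the plasma protein, folding and lysosomal lists have median intron lengths of 11.2, 9.35 and 13.0 kb, all below that of all genes, and the part of the RNA measures in these falls was not tested.

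**Figure D4:**
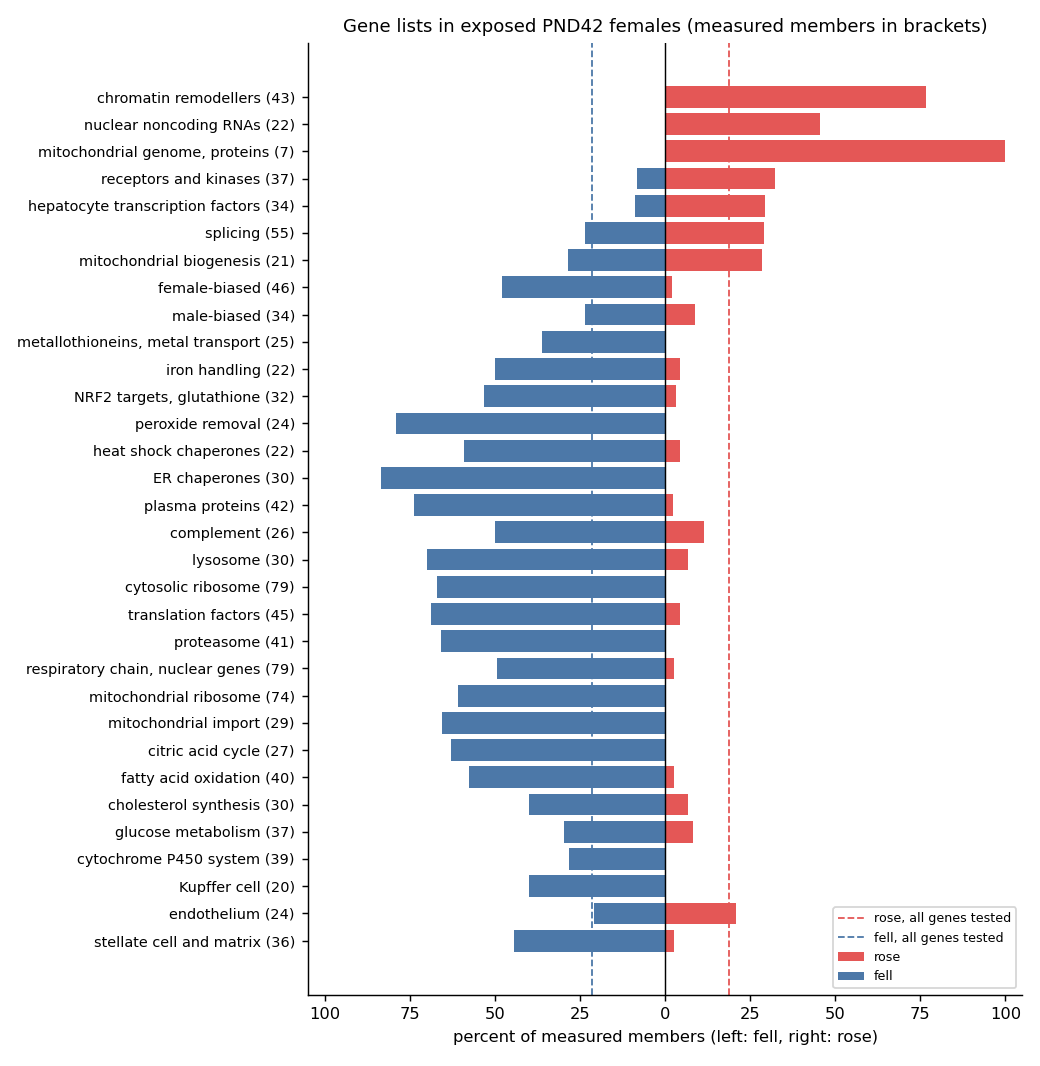
Percent of measured members of the gene lists that rose (right) or fell (left) in exposed PND42 females, with dashed lines at the share of all genes tested (18.9% rose, 21.4% fell). All 7 measured protein genes of the mitochondrial genome rose, 76.7% of the chromatin list rose, and most lists of housekeeping and secretory genes extend left of the dashed line.

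The measured genes of the mitochondrial genome rose, while among nuclear subunits of the respiratory chain more fell than rose. All 7 measured protein genes of the mitochondrial genome rose (median 1.68), as did both of its ribosomal RNAs and the 5 measured transfer RNAs. The oxidase subunit mt-Co1 stood at 1319684, 524312, 711458 and 783720.3 normalised read counts in the control libraries and 4260480.0, 2878832, 1754119.8 and 1913830.4 in the exposed libraries (1.68 ± 0.39, adjusted p = 0.00246). mt-Nd6, the protein gene on the other strand of that genome, went from 6422 ± 2610.4 to 35114 ± 11599.6 (2.47 ± 0.29, adjusted p = 1.98e-05), and the ribosomal RNA mt-Rnr2 from 130227 ± 60231 to 466162 ± 107616 (1.94 ± 0.33, adjusted p = 0.0003). Control females were the low group here: all 4 lay below all 8 males for mt-Rnr2, at 351855 to 748644, and the exposed females overlapped the males.

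Of 79 nuclear-encoded subunits of the respiratory chain and ATP synthase 39 fell and 2 rose (median -0.61; rescaled, 11 rose and 27 fell). In complex I 15 of 36 fell and 2 rose, with a median of -0.39 that came to 0.00 with the other scaling (rescaled, 8 rose and 7 fell). In complexes II to IV with cytochrome c 14 of 25 fell and 0 rose (rescaled, 2 rose and 11 fell), and in ATP synthase 10 of 18 fell and 0 rose (rescaled, 1 rose and 9 fell). Ndufa4, a subunit of cytochrome oxidase that was counted in the complex I list here, went from 8538 ± 1134 to 2219 ± 329 (-1.95 ± 0.32, adjusted p = 0.000187). Sdha of succinate dehydrogenase went from 8047 ± 3309 to 2027 ± 216 (-1.92 ± 0.31, adjusted p = 0.000182). Atp5b, the catalytic subunit of ATP synthase, went from 26074 ± 7664 to 5760.1 ± 573 (-2.14 ± 0.35, adjusted p = 0.000181). Ndufb4, a complex I subunit, was 1 of the 2 that rose with the deposited scaling, at 654, 435, 589 and 690.1 against 1609, 1386, 947 and 1339.5 (1.15 ± 0.21, adjusted p = 0.000513), and its exposed libraries lay within the male range of 867 to 1659. Ndufb4 has processed copies in the genome, so that its counts are uncertain.

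Around the chain, 17 of 27 citric acid cycle genes fell (rescaled, 1 rose and 9 fell), 45 of 74 mitochondrial ribosomal proteins (1 and 25) and 19 of 29 import genes (0 and 12), with 0 rising in each of these lists under the deposited scaling. Mdh1, the cytosolic malate dehydrogenase of the malate shuttle, stood at 14932, 21550.5, 12710.0 and 15946 normalised read counts in the control libraries and 2597, 2668, 2445 and 2934 in the exposed libraries (-2.59 ± 0.33, adjusted p = 3.07e-05). The 4 exposed libraries were close to each other and below every control and every male (4739 to 20651). Mrps22 of the small mitochondrial ribosomal subunit went from 598 ± 38.0 to 179 ± 29.7 (-1.75 ± 0.23, adjusted p = 4.41e-05). Of 21 regulators of mitochondrial biogenesis 6 rose and 6 fell with the deposited scaling (28.6% each, against 18.9% and 21.4% of all genes, median 0.20). The direction depended on the scaling (rescaled, 12 rose and 1 fell, with a median of 0.58). Tfam, which packages and transcribes mitochondrial DNA, went from 1312 ± 136 to 732 ± 99.8 (-0.85 ± 0.18, adjusted p = 0.00176), and Ssbp1, the single-strand binding protein of that DNA, from 946 ± 112 to 1318 ± 82.6 (0.48 ± 0.13, adjusted p = 0.00844).

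Among genes of protein synthesis and breakdown more fell than rose. Of 79 ribosomal protein genes of the cytosol 53 fell and 0 rose (median -0.95; rescaled, 3 rose and 40 fell). Translation factors fell in 31 and rose in 2 of 45 (rescaled, 3 rose and 21 fell), and proteasome subunits fell in 27 and rose in 0 of 41 (rescaled, 1 rose and 19 fell). Rpl15 stood at 2636, 2837, 2811 and 2864 normalised read counts in the control libraries and 574, 580.5, 564 and 724 in the exposed libraries (-2.20 ± 0.26, adjusted p = 1.74e-05). Ribosomal protein genes have many processed copies, which can draw reads from them. The elongation factor Eef1a1 went from 49245 ± 14837 to 7307 ± 1435 (-2.73 ± 0.36, adjusted p = 4.01e-05) and Eif5a, which helps ribosomes past stalling motifs, from 7850.1 ± 729 to 1576 ± 276 (-2.33 ± 0.29, adjusted p = 2.94e-05). The proteasome core subunit Psma5 went from 1554 ± 71.0 to 415 ± 27.9 (-1.91 ± 0.21, adjusted p = 1.31e-05). The initiation scaffold Eif4g3, whose gene has 204 kb of intron against 1.10 kb for Rpl15, was 1 of the 2 translation factors that rose with the deposited scaling (1709.5 ± 69.2 to 3551 ± 257, 1.05 ± 0.18, adjusted p = 0.000283).

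In lipid metabolism, fatty acid oxidation genes and targets of the receptor PPARA fell in 23 of 40 and rose in 1 (median -0.98; rescaled, 2 rose and 21 fell). The member that rose with the deposited scaling was Ppara itself, the gene of the receptor, at 3014, 2826, 2103 and 2034 against 10258, 9703, 7967 and 5248 (1.71 ± 0.29, adjusted p = 0.000267), and its 64.0 kb of intron exceed the 18.2 kb median of the list. Acads, the short-chain acyl-CoA dehydrogenase, went from 3182 ± 590.5 to 707 ± 77.8 (-2.16 ± 0.34, adjusted p = 0.000179). Cholesterol genes fell in 12 and rose in 2 of 30, which is 40.0% and 6.67% against 21.4% and 18.9% of all genes (rescaled, 5 rose and 8 fell). The isomerase Idi1 of the mevalonate pathway stood at 242, 526, 255 and 468 against 22.4, 32.7, 24.5 and 132 (-3.12 ± 0.48, adjusted p = 0.000126). The exposed values lay below or above the male range of 33.1 to 127. Abcg5, which exports sterols into bile, rose from 3282 ± 1091 to 9884 ± 3604 (1.61 ± 0.36, adjusted p = 0.0022). Mlxipl, the gene of the glucose-sensing factor ChREBP, rose from 16561 ± 3251 to 31203 ± 5309 (0.92 ± 0.26, adjusted p = 0.00856).

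Glucose metabolism genes fell in 11 and rose in 3 of 37, which is 29.7% and 8.11% against 21.4% and 18.9% of all genes. Their median of -0.31 turned to 0.08 with the other scaling (rescaled, 8 rose and 8 fell). Of 10 glycolysis genes 6 fell and 0 rose, among them Pgam1 (595 ± 283 to 70.8 ± 19.8, -2.98 ± 0.43, adjusted p = 9.19e-05) and Ldha (10522 ± 1108 to 2689.7 ± 474, -1.98 ± 0.37, adjusted p = 0.000561). Periportal genes fell in 10 and rose in 1 of 23 (rescaled, 4 rose and 7 fell), the falls including Ass1 of the urea cycle at 44693, 50644, 42349 and 38112 against 14194, 10997, 25490.0 and 21889 (-1.35 ± 0.32, adjusted p = 0.00344). Pericentral genes fell in 10 and rose in 3 of 28 (median -0.38; 6 falling without control replicate 2), and with the other scaling the median was 0.01 (rescaled, 7 rose and 6 fell). Lgr5, a Wnt target gene of hepatocytes around the central vein, rose from 113 ± 59.3 to 397 ± 163 (1.86 ± 0.45, adjusted p = 0.00373), while the pericentral P450 genes Cyp2e1 (194741 ± 22266 to 66034 ± 12106, -1.57 ± 0.43, adjusted p = 0.00749) and Cyp2c37 (11394 ± 1395 to 1605 ± 745, -2.94 ± 0.41, adjusted p = 8.59e-05) fell.

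Of 39 genes of the P450 system 11 fell (28.2%, against 21.4% of all genes) and 0 rose. Their median of -0.39 came to 0.00 with the other scaling (rescaled, 6 rose and 10 fell). Of 37 conjugation enzymes 18 fell and 2 rose (rescaled, 6 rose and 14 fell), among the falls the secreted carboxylesterase Ces1c (100688 ± 30145 to 25088 ± 3846, -1.98 ± 0.34, adjusted p = 0.000292). Bile acid genes fell in 5 and rose in 1 of 25 (20.0% and 4.0%, below the 21.4% and 18.9% of all genes), with 3 falling when control replicate 3 was left out. Their median of -0.12 turned to 0.27 with the other scaling (rescaled, 4 rose and 3 fell). The uptake transporter Slc10a1 went from 20896 ± 3292 to 6254 ± 557 (-1.73 ± 0.31, adjusted p = 0.000435). Cyp7a1, the rate-limiting enzyme of bile acid synthesis, overlapped between the groups, at 10426, 8186, 7916 and 15462 against 2883, 7239, 2122 and 11631 (-1.08 ± 0.50, adjusted p = 0.0964). Without exposed replicate 4, its highest exposed library, the log2 fold change of Cyp7a1 was -1.51 (adjusted p = 0.0194).

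Transcription factors of hepatocytes had more members that rose than fell, with 10 of 34 rising and 3 falling (median 0.29). These are 29.4% and 8.82%, against 18.9% and 21.4% of all genes (rescaled, 18 rose and 2 fell). Esrrg (chromosome 1, 187608791 to 188214885), an orphan nuclear receptor gene with 599.9 kb of intron, stood at 227, 136, 212 and 192 normalised read counts in the control libraries and 1616, 1060.3, 1540.2 and 1059 in the exposed libraries (2.77 ± 0.30, adjusted p = 1.26e-05). Every exposed library was far above the highest control and every male (98.4 to 369). Tcf7l2, the Wnt effector, rose from 706 ± 303 to 3457 ± 454 (2.38 ± 0.28, adjusted p = 1.98e-05) and Zbtb20, a repressor of fetal genes, from 6856 ± 752 to 19691 ± 2963 (1.52 ± 0.23, adjusted p = 9.94e-05). Cebpa, which has no intron, fell from 8232 ± 968 to 2714 ± 300.1 (-1.60 ± 0.19, adjusted p = 2.02e-05). Hnf4a fell from 16291 ± 7163 to 8200.2 ± 989.7 (-0.90 ± 0.27, adjusted p = 0.0139) with overlapping libraries, and lost its call on leaving out control replicate 3 (-0.64, adjusted p = 0.0588) or with the mitochondrial reads left out of the scaling (-0.51, adjusted p = 0.14).

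Among genes of metal transport and of iron more fell than rose, and the metallothionein genes Mt1 and Mt2 did not pass. The promoters of 3 targets of MTF1 are printed because they carry matches to its metal response element. The letters searched were TGCACNC and TGCGCNC on both strands (in capitals, overlapping matches counted once), in RefSeq promoters of GRCm38.p6, all on the plus strand: chr8:94178839-94179138 for Mt1, chr8:94172368-94172667 for Mt2 and chr1:191906531-191906830 for Slc30a1. They hold 3, 4 and 2 matches. Of 32851 promoters of 300 bases 25.7% hold at least 1 match and 0.517% hold 4 or more, and a match is no evidence that the factor binds.
Mt1: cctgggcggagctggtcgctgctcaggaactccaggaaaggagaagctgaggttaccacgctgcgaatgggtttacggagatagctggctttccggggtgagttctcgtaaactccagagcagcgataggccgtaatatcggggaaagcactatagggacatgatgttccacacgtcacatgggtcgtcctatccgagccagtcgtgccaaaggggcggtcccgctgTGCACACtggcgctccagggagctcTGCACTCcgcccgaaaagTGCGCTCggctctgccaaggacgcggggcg
Mt2: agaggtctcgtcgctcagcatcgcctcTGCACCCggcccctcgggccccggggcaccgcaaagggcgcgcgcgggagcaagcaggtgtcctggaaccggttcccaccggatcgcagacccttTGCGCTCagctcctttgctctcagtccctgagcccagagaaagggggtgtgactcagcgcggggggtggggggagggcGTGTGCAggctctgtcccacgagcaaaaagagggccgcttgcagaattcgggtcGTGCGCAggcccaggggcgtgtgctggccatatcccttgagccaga
Slc30a1: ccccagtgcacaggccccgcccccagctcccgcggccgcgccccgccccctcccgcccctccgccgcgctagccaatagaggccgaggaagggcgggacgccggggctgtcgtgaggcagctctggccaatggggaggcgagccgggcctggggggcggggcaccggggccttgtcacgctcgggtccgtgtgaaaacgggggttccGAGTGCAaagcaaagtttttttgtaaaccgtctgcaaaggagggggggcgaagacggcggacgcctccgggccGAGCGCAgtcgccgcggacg

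Mt1 stood at 3866, 656, 15135 and 3769 normalised read counts in the control libraries and 16344, 5598, 581 and 3984 in the exposed libraries. Both groups spread widely, and the highest and the lowest of the 8 libraries were both exposed. The log2 fold change was 0.14 ± 1.40, adjusted p = 0.946. Mt2 stood at 2716, 455, 9591 and 3002 against 9596, 1780.5, 249.6 and 1908 (-0.53 ± 1.52, adjusted p = 0.81), with the libraries in nearly the same order. Leaving out single libraries turned the sign of each, and males spanned 524 to 75232 for Mt1. The regulator Mtf1 did not pass with the deposited scaling (489 to 712 in control females and 632 to 834 in exposed females, 0.28 ± 0.19, adjusted p = 0.247) and rose without mitochondrial reads in the scaling (0.67, adjusted p = 0.0254). The zinc exporter Slc30a1, also an MTF1 target, stood at 1249.5, 1284, 1183 and 1019 normalised read counts in the control libraries and 439, 405, 316 and 428 in the exposed libraries (-1.58 ± 0.22, adjusted p = 6.15e-05), and all exposed libraries were below all controls.

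Of the 25 metallothionein and metal transport genes 9 fell and 0 rose (median -0.36; rescaled, 5 rose and 6 fell, with a median of 0.02). Slc39a4, an importer of zinc, stood at 985, 1118, 1330.5 and 748 normalised read counts in the control libraries and 253, 192, 239 and 352 in the exposed libraries (-2.01 ± 0.21, adjusted p = 1.03e-05). The exposed libraries lay below the control females and below the male range of 1517 to 2380.3. Slc39a8, a carrier of zinc, manganese and cadmium, went from 732 ± 102 to 241 ± 35.0 (-1.60 ± 0.19, adjusted p = 2.01e-05). Iron genes fell in 11 of 22 and rose in 1 (rescaled, 3 rose and 8 fell). Bmp6, a signal that induces hepcidin, rose from 63.0 ± 15.5 to 188 ± 59.0 (1.55 ± 0.29, adjusted p = 0.000521). The ferritin light chain Ftl1 went from 36691 ± 5214 to 8032 ± 839.7 (-2.19 ± 0.24, adjusted p = 1.38e-05) and the exporter Slc40a1 from 7646 ± 559 to 2718 ± 398 (-1.50 ± 0.21, adjusted p = 7.04e-05). Hamp, the gene of the iron hormone hepcidin, overlapped between the groups, at 107863, 41026, 43992 and 58188 against 59447, 44483, 43916 and 43297 (-0.29 ± 0.32, adjusted p = 0.491).

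Among genes of oxidant defence more fell than rose, and the gene of their regulator rose. Of 24 genes that remove peroxide and superoxide 19 fell and 0 rose (median -1.05; rescaled, 0 rose and 16 fell), and of 32 NRF2 targets and glutathione genes 17 fell and 1 rose (median -0.63; rescaled, 1 rose and 10 fell, and 11 falling without control replicate 2). Hmox1, the heme oxygenase gene, stood at 512, 645, 405 and 614 normalised read counts in the control libraries and 106, 122, 122 and 153.6 in the exposed libraries (-2.09 ± 0.28, adjusted p = 4.63e-05). Prdx1, a peroxiredoxin, went from 28939 ± 4253 to 4804 ± 1189.5 (-2.62 ± 0.38, adjusted p = 7.64e-05). Gpx1, the selenium-dependent glutathione peroxidase, went from 42974 ± 7334 to 9586 ± 1520.0 (-2.16 ± 0.43, adjusted p = 0.000903). Nfe2l2, the gene of NRF2, rose, at 2553, 2326, 2472 and 2802 against 6498, 6299, 8784 and 3677 (1.25 ± 0.24, adjusted p = 0.000644). Nqo1, a classical NRF2 target named after its values were seen, stood at 174, 143, 163 and 161 against 147.4, 93.4, 90.6 and 86.7 (-0.65 ± 0.47, adjusted p = 0.288), and passed in the fit of the female libraries alone (adjusted p = 0.0245). The median intron length was 7.04 kb for the genes that remove peroxide and superoxide and 16.3 kb for the NRF2 targets and glutathione genes. Nfe2l2 has 25.3 kb.

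The longer lists of genes of other liver cells had 8 falling and 0 rising of 20 for Kupffer cells. They had 5 and 5 of 24 for endothelium, near the shares of all genes (median -0.08). The counts were 16 and 1 of 36 for stellate cells and matrix, and 4 and 1 of 10 for bile duct. With the other scaling 7, 4, 11 and 1 fell and 0, 7, 1 and 2 rose, with medians of 0.31 for endothelium and 0.05 for bile duct, and 2 bile duct genes fell without control replicate 2 or exposed replicate 2. Beside the marker counts that follow, 21.4% of all genes fell and 18.9% rose. Among the defining markers, of 6 Kupffer cell markers 2 fell and 0 rose, with a summed level of 4896 to 8364 in control females and 3693 to 6312 in exposed females. Of 5 sinusoidal endothelium markers 3 fell and 1 rose (5802 to 6559.8 in control females and 5397 to 5708 in exposed females), of 5 stellate cell markers 4 fell (10256 to 13293 in control females and 7447 to 8766 in exposed females), and of 5 bile duct markers 2 fell (1035 to 2091 in control females and 358 to 656 in exposed females). The 6 hepatocyte markers, of which 4 fell and 0 rose, summed to 2708268 to 3788721 in control females and 1170325 to 2189424 in exposed females. Markers of other blood cells and tissues were partly in the table, 3 of 5 for lymphocytes, 1 of 3 for neutrophils, 2 of 3 for red cells, 1 of 3 for pancreas, 0 of 2 for fat and 2 of 2 for mesothelium. Of these the pancreas marker fell (1070.4 to 1676 in control females and 519 to 677 in exposed females), and the others did not pass. No marker in the table was at 0 in all 8 libraries. Clec4f, which defines Kupffer cells, did not pass (2888, 4574, 2708 and 4242 against 3531, 2553, 2319 and 2461, -0.39 ± 0.21, adjusted p = 0.143), while the complement gene C1qc of macrophages fell from 759 ± 164 to 191 ± 82.3 (-2.07 ± 0.33, adjusted p = 0.000185). Egfl7, a secreted factor of endothelium, rose from 44.5 ± 9.78 to 163 ± 36.2 (1.84 ± 0.44, adjusted p = 0.00311). Spp1, made by bile duct cells and macrophages, fell from 1309 ± 444 to 347 ± 96.6 (-1.90 ± 0.35, adjusted p = 0.000549). The part of cell content in the hepatocyte differences was not tested.

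The 8 male libraries show how the same lists varied with the long-gene mean apart from the female comparison. These 12 relations were chosen after the values were seen, so that their p-values describe these libraries and are no independent test. The 4 control and 4 exposed males were permuted together, without regard to exposure. Genes with over 300 kb of intron were taken out of each list first, and the points share their scaling. The part of this shared scaling in the relations was not tested. The mean of the chromatin list rose with the long-gene mean, with Pearson r 0.89 (exact permutation p = 0.0067, adjusted p = 0.0147), Spearman rho 0.71 (exact permutation p = 0.0576, adjusted p = 0.0768), and r 0.62 without the 2 libraries farthest from the median. The mitochondrial protein genes gave Pearson r 0.94 (exact permutation p = 0.000769, adjusted p = 0.00813), Spearman rho 0.93 (exact permutation p = 0.00223, adjusted p = 0.0268), and r 0.78 without the 2 libraries farthest from the median. Nuclear-encoded respiratory chain genes went the other way, with Pearson r -0.82 (exact permutation p = 0.0126, adjusted p = 0.0189), Spearman rho -0.74 (exact permutation p = 0.0458, adjusted p = 0.0768), and r -0.61 without the 2 libraries farthest from the median. Plasma proteins also went down, with Pearson r -0.86 (exact permutation p = 0.00521, adjusted p = 0.0147), Spearman rho -0.74 (exact permutation p = 0.0458, adjusted p = 0.0768), and r -0.66 without the 2 libraries farthest from the median. For endoplasmic reticulum chaperones it was Pearson r -0.64 (exact permutation p = 0.0843, adjusted p = 0.0843), Spearman rho -0.62 (exact permutation p = 0.115, adjusted p = 0.125), and r 0.17 without the 2 libraries farthest from the median, so that this relation rests on those 2 libraries. Fatty acid oxidation, lysosome, peroxide removal, mitochondrial ribosome and proteasome lists had Pearson r of -0.92 to -0.76 (exact permutation, adjusted p = 0.00814 to 0.0314) and Spearman adjusted p of 0.0643 to 0.0768. Without the 2 libraries farthest from the median their r was -0.86, -0.83, -0.69, -0.58 and -0.48 in that order. Ribosomal proteins (r -0.70, exact permutation adjusted p = 0.0749, and r -0.31 without those 2 libraries) and nuclear RNAs (r 0.65, exact permutation adjusted p = 0.0789, and 0.65) did not pass. By rank, 1 of the 12 relations passed after adjustment, that of the mitochondrial protein genes.

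The difference between the sexes in the effect of exposure was tested directly. For 1036 genes (7.91%) the log2 fold change in females differed from that in males, with 503 higher and 533 lower in females, and 1029 of the 1036 had also passed in females. Among the female-biased genes Cyp3a16 (females minus males -6.82 ± 1.29, adjusted p = 0.00719), Sult3a2 (-6.11 ± 1.14, adjusted p = 0.00643) and A1bg (-3.54 ± 0.76, adjusted p = 0.0153) differed. Cyp3a16 stood at 0 to 3.97 in males, so that a fall of the size seen in females could not appear there. Its difference between the sexes therefore follows from the fall in females. A1bg was also low in males, at 13.8 to 62.8. Long genes led the higher side, with Naaladl2 (2.76 ± 0.27, adjusted p = 6.58e-05), Nkain2 (3.56 ± 0.38, adjusted p = 0.000184), Fhit (2.63 ± 0.29, adjusted p = 0.000213) and Esrrg (2.995 ± 0.43, adjusted p = 0.00161). On the lower side were the basement membrane gene Nid1, which went from 509 ± 67.8 to 119.9 ± 24 (-2.46 ± 0.29, adjusted p = 0.000395), and Itm2c, a membrane protein that inhibits amyloid formation, from 624 ± 145.5 to 100.8 ± 16.9 (-2.50 ± 0.30, adjusted p = 0.000488). Of the metal genes Slc39a4 (-2.0 ± 0.30, adjusted p = 0.00195), Slc39a8 (-1.42 ± 0.27, adjusted p = 0.00685) and Slc30a1 (-1.27 ± 0.31, adjusted p = 0.022) differed, and Mt1 did not pass (-1.52 ± 1.98, adjusted p = 0.677). Malat1 (1.30 ± 0.42, adjusted p = 0.0681) and mt-Co1 (1.46 ± 0.55, adjusted p = 0.105) did not pass, and mt-Nd6 did (2.40 ± 0.41, adjusted p = 0.00412). The number of genes was 562 without female control replicate 3, and 606, 528 and 496 when exposed replicate 1, 2 or 3 was left out. With the mitochondrial share, the long-gene mean or Malat1 as a covariate it was 25, 8 and 15. These measures separated exposed from control libraries in females and overlapped in males. A sex difference in the effect of exposure therefore cannot be told from one in the RNA measures.

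**Figure D5:**
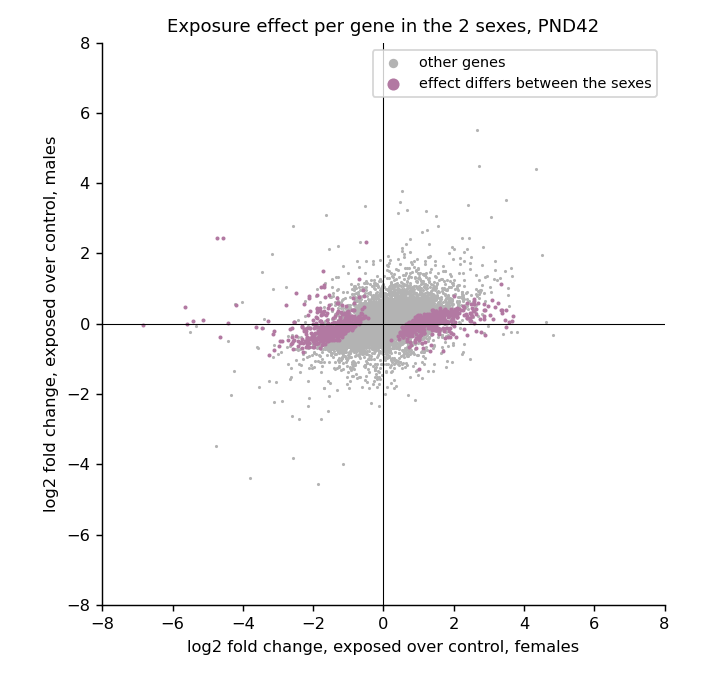
Log2 fold change of exposed over control in PND42 females (x axis) and males (y axis) for each of 13091 genes, with the 1036 genes whose effect differed between the sexes in purple. These lie along the x axis on both sides of 0, away from 0 in females and near it in males.

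When an RNA measure entered the fit of all 16 libraries as a covariate, few differences in females remained. With the mitochondrial share 73 genes passed (32 rose and 41 fell, 70 of them also called without it), with Malat1 16 (12 and 4, of which 15), and with the long-gene mean 6 (5 and 1, of which 2). Naaladl2 and Nid1 passed with Malat1 and with the long-gene mean, and Nkain2, Fhit and Itm2c with Malat1. Naaladl2 is itself among the genes that make up the long-gene mean. Among the 122 genes named, closing observations included, the log2 fold change changed sign in 7 with the mitochondrial share, 8 with Malat1 and 27 with the long-gene mean. As the covariates differ without overlap between exposed and control females, though not between those of males, a call lost in these fits is ambiguous. It does not show which of the 2, exposure or RNA measure, goes with the gene.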

How the data were processed

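Liver RNA of 16 PND42 mice was sequenced as single-end reads. Per the submitters' processing notes FastQC, STAR, featureCounts and the build mm10 were used, and no source used here gives their versions. The authors deposited log2 values of counts divided by a library size factor plus 1, as read from the values: multiplied back, 100% of them came within 0.1 of whole reads. The deposited signal column is the mean of those normalised counts, at least 12.1 for each gene listed, and genes below it are not analysed here. Gene positions, types and intron lengths came from GENCODE vM21, which held 13071 of the 13091 genes and gave 18 symbols. Promoters are from RefSeq tables of GRCm38.p6 and were aligned with Biopython 1.88.

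Limma 3.58.1 (R 4.3.3, intensity trend, robust empirical Bayes) was fitted to the deposited log2 values of all 16 libraries as 4 groups. A filter of 10 normalised counts in at least 4 libraries removed no gene. Tests were two-sided, with Benjamini-Hochberg adjustment over 13091 genes at 0.05. On simulated data for the female comparison, with 13091 genes, 23 of 50 genes changed by 1 on the log2 scale were called, 40 of 50 changed by 2, 48 of 50 changed by 3 and 50 of 50 changed by 4, with 8 calls among 12891 unchanged genes. The number of calls that a group difference in the RNA measures would add was not tested in this way. These measures were compared by exact permutation. Gene lists, members and the comparison were chosen with earlier results of these data known, so lists are described by counts and medians without a test. Named genes were Xist, Ddx3y, Alb, Mt1, Mt2, Malat1 and Neat1, the 10 highest and 10 lowest fold changes with libraries that do not overlap, the 10 of highest control mean that passed in each direction, the 4 of lowest p in each direction of a list or any member of a list with at most 25 measured, and the 8 of lowest adjusted p for the sex difference in each direction. Cyp3a44, Cux2, Cyp2b9, Ctsd and Nqo1 were added after their values were seen. Nothing says whether animals shared a litter, so p-values measure only the spread between these samples, which may be technical. The alternatives were other scalings, voom on the recovered reads (5605 genes called, 2762 rose and 2843 fell), a pseudocount of 10, a filter at 100 normalised counts, the RNA measures as covariates, a replicate block and leaving out each female library.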

Additional observations from a re-analysis of the deposited data

Results flagged for a closer look

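In 10 of 250 sets of 4 female libraries checked, 1 library stood far from the other 3, a share below the 1 in 20 that chance gives. Exposed replicate 4 was the highest for Gpx1 (11853 normalised read counts) and Rpl15 (724) and the lowest for Lncpint (1866) and Bhlhe40 (878). Exposed replicate 3 was the highest for Abcg5 (15273), and exposed replicate 1 for Hamp (59447) and Nqo1 (147.4). Among controls, replicate 3 was the highest for Eef1a1 (71405), replicate 4 the highest for Mup3 (148653) and replicate 2 the lowest for Rarb (205).

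The exposure effect differed between the sexes for 1036 genes, among them 70 of the genes named here. As described above, such a difference cannot be told from one in the RNA measures. The values below are the log2 fold change in females minus that in males, and none of these genes passed in males alone. Among sex-biased and growth hormone genes they were Cyp3a16 -6.82, Cyp3a44 -3.38, Sult2a1 -5.49, Sult3a2 -6.11, A1bg -3.54, C8b -1.40, Mup3 -1.21, Susd4 2.21, Ghr 0.96, Igfbp3 -1.36 and Igfbp4 -1.48. Cyp3a16 is so low in males that a fall of this size could not appear there. Very long genes and genes that act in the nucleus gave Naaladl2 2.76, Nkain2 3.56, Fhit 2.63, Lncpint 3.48, Arid1b 1.78, Chd2 1.24, Clk1 1.48, Rbm39 0.99, Snrpb -1.63 and H3f3b -1.28. The sperm flagella gene Tekt3 gave 3.57. Secretory and lysosomal genes gave Ahsg -1.66, Fgg -2.08, Cfi -1.64, Pdia6 -1.81, Cstb -2.10, Ctsd -4.45 and Lamp1 -1.73. Genes of mitochondria and the malate shuttle gave mt-Nd6 2.40, mt-Rnr2 1.80, Ndufb4 1.43, Sdha -1.48, Mdh1 -1.88 and Mrps22 -1.40, and genes of translation and the proteasome Rpl15 -1.90, Eef1a1 -2.28, Eif5a -1.90, Eif4g3 0.90 and Psma5 -1.50. Metabolic genes and transcription factors gave Idi1 -2.93, Pgam1 -2.35, Cyp2c37 -2.45, Ces1c -1.67, Rdh10 -0.93, Apom -1.75, Apoh -1.52, Esrrg 2.995, Tcf7l2 2.22, Zbtb20 1.38, Cebpa -1.55, Rora 1.19 and Bhlhe40 -1.42. Metal, iron and oxidant defence genes gave Slc39a4 -2.0, Slc39a8 -1.42, Slc30a1 -1.27, Ftl1 -1.81, Slc40a1 -1.38, Bmp6 1.502, Hmox1 -1.96 and Prdx1 -2.06, markers of other cells and the membrane gene Itm2c Spp1 -2.36, Nid1 -2.46 and Itm2c -2.50, and signalling, immune and cell cycle genes Rptor 0.97, Mapk3 -0.91, Steap4 -2.83, Gbp2 -1.64, Bst2 -1.19 and Aen -1.67.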

How the results depend on the processing

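Of the 122 genes named, 109 passed with the deposited scaling, and all 122 kept direction and call with voom, trimmed mean of M values, total reads, a pseudocount of 10 and no filter. A filter at 100 normalised counts kept those of the 121 it left in, and with the female libraries alone Nqo1 and Stat5b came to pass. With the mitochondrial reads left out of the scaling, 4251 genes rose and 1470 fell, and Hamp turned to 0.097, Igf1, Mtf1 and Stat5b came to pass and Hnf4a no longer did. With the mitochondrial share as a covariate 73 genes passed (32 rose, 41 fell), with the long-gene mean 6 (5 and 1) and with Malat1 16 (12 and 4), and genes differing between the sexes came to 25, 8 and 15, by fits added after seeing the data. Of the genes named, 93, 88 and 101 kept their direction and lost the call. The cause was not tested.

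Leaving out each female library in turn gave 4234 to 4894 genes (1891 to 2256 rose, 2340 to 2638 fell) and 496 to 843 differing between the sexes. The mitochondrial share then differed by 16.4 to 20.9 percentage points, the long-gene mean by 1.40 to 1.54 and Malat1 by 1.38 to 1.66. Signs that turned were those of Ddx3y (-0.082 to 0.50, turned without exposed replicate 4 at -0.082); Hamp (-0.46 to 0.005, turned without control replicate 2 at 0.005); Mt1 (-0.66 to 1.04, turned without control replicate 3 at -0.66, exposed replicate 1 at -0.56 and exposed replicate 2 at -0.047); Mt2 (-1.37 to 0.39, turned without control replicate 4 at 0.13 and exposed replicate 3 at 0.39); Xist (-0.15 to 0.11, turned without control replicate 3 at -0.15, exposed replicate 2 at -0.036 and exposed replicate 3 at -0.048).

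Signs also turned with the mitochondrial share as a covariate for Cux2 (-2.03), Cyp2e1 (0.059), Cyp7a1 (0.032), Mt1 (-0.64), Mtf1 (-0.13), Xist (-0.33) and mt-Co1 (-0.028). The reads of mt-Co1 are themselves part of that share, so that its value near 0 is no separate result. With Malat1 they turned for Cdk6 (-0.13), Cux2 (-2.91), Mt1 (-1.20), Neat1 (-0.16), Nlrc5 (-0.051), Nqo1 (0.59), Stat5b (-0.028) and Xist (-0.43). With the long-gene mean they turned for Acads (0.16), Alb (0.072), Atp5b (0.19), Cdk6 (-0.31), Ces1c (0.12), Clec4f (0.17), Cux2 (-2.99), Cyp2e1 (0.84), Cyp3a41a (0.72), Cyp7a1 (1.32), Gpx1 (0.33), Hspa8 (0.20), Hspd1 (0.18), Igf1 (-0.29), Kcnq1ot1 (-0.64), Malat1 (-0.19), Mccc1 (0.18), Mt2 (0.15), Mtf1 (-0.61), Neat1 (-1.10), Nlrc5 (-0.25), Nqo1 (0.91), Sdha (0.029), Slc10a1 (0.016), Tfam (0.22), Xist (-0.73) and mt-Co1 (-0.15).

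Replicate numbers did not pair the animals: same-numbered control and exposed libraries had deviations correlated at 0.072, -0.079 and 0.044. A replicate block on the 6 numbered libraries called 4974 genes (2345 rose, 2629 fell), against 5371 for these 6 without the block, a fit added after seeing the data, and Mt1 was -0.52 in both. Under the block Mt2 (-1.27, adjusted p = 0.0392) and Nqo1 (adjusted p = 0.0375) passed and Klkb1 (adjusted p = 0.0707) and Ssbp1 (adjusted p = 0.0513) did not, and without it in these 6 Nqo1 passed (adjusted p = 0.0161) and Klkb1 (adjusted p = 0.0912) and Hnf4a (adjusted p = 0.088) did not. Genes near the lowest listed mean, 12.1 normalised counts, are limited by counting error.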

Other observations

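Gene groups outside the comparisons above are described here on lists chosen with earlier results of these data known. The share that passed in the interferon, acute phase, cell cycle and clock lists was near or below that of all genes in both directions. Of 37 receptors and kinases of growth factor, insulin and Wnt signalling 12 rose and 3 fell (6 rising without control replicate 3), against 18.9% and 21.4% of all genes. Rptor, the mTORC1 scaffold with 283 kb of intron, rose from 773 ± 42.2 to 1376 ± 115 normalised read counts (0.83 ± 0.12, adjusted p = 9.19e-05). Mapk3, the ERK1 gene with 3.96 kb, fell from 679 ± 53.2 to 352 ± 44.9 (-0.95 ± 0.18, adjusted p = 0.00077). Amino acid catabolism genes fell in 16 of 35 and rose in 0, with Gnmt, which methylates glycine, going from 28129 ± 11247 to 9389 ± 2230.3 (-1.53 ± 0.31, adjusted p = 0.00102) and Mccc1 of leucine breakdown from 1533 ± 283 to 716 ± 46.4 (-1.08 ± 0.22, adjusted p = 0.00102). Lipoprotein and lipid droplet genes fell in 11 of 29 and rose in 1. Apom, an apolipoprotein of high-density particles, stood at 1315, 5177, 2462 and 1902 against 657, 549, 408 and 552 (-2.15 ± 0.33, adjusted p = 0.000135), and Apoh, a phospholipid-binding plasma protein, went from 85663 ± 30793 to 24374 ± 3765 (-1.75 ± 0.29, adjusted p = 0.000215).

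Of 27 retinoid genes 11 fell (40.7%, against 21.4% of all genes) and 4 rose (14.8%, against 18.9%), with 7 falling without exposed replicate 3. The retinol dehydrogenase Rdh10 fell from 888 ± 90.4 to 416 ± 29.8 (-1.09 ± 0.14, adjusted p = 3.13e-05) and the alcohol dehydrogenase Adh5 from 10975 ± 794 to 3524 ± 413 (-1.64 ± 0.28, adjusted p = 0.000269), while Rarb, a retinoic acid receptor gene with 383 kb of intron, rose from 267 ± 41.7 to 470.3 ± 43.8 (0.82 ± 0.24, adjusted p = 0.0126). Interferon-stimulated and MHC class I genes fell in 7 and rose in 4 of 41. The guanylate-binding protein gene Gbp2 fell from 200.3 ± 52.6 to 46.6 ± 8.69 (-2.06 ± 0.28, adjusted p = 5.09e-05) and the tetherin gene Bst2 from 3724 ± 490.2 to 1439 ± 283 (-1.38 ± 0.22, adjusted p = 0.000147), and Nlrc5, the activator of MHC class I genes, rose from 879.8 ± 328 to 2045 ± 213 (1.28 ± 0.31, adjusted p = 0.00342). Acute phase genes fell in 6 and rose in 1 of 28 (13 falling in the fit of the female libraries alone), with the metalloreductase Steap4 going from 2756 ± 979 to 632 ± 206 (-2.11 ± 0.41, adjusted p = 0.000921). Clock genes rose in 4 and fell in 1 of 20 (2 rising without exposed replicate 2). The nuclear receptor gene Rora, with 721 kb of intron, rose from 2123 ± 453 to 5133 ± 827 (1.28 ± 0.20, adjusted p = 0.000133) and the repressor gene Bhlhe40, with 1.59 kb, fell from 3226 ± 740.5 to 1362 ± 323 (-1.25 ± 0.24, adjusted p = 0.000615). Cell cycle genes fell in 5 and rose in 3 of 30, with the replication clamp Pcna falling from 414 ± 129.8 to 150.6 ± 39.2 (-1.45 ± 0.24, adjusted p = 0.000237) and the kinase Cdk6 rising from 518 ± 80.4 to 996 ± 109 (0.95 ± 0.23, adjusted p = 0.00337). Of 19 p53 target and apoptosis genes 8 fell and 3 rose, among them the p53-induced nuclease Aen, from 288 ± 141 to 74.7 ± 27.9 (-1.86 ± 0.35, adjusted p = 0.000549), and Mdm2, the p53 ligase, from 919 ± 133 to 1579 ± 213 (0.78 ± 0.19, adjusted p = 0.00318). With the mitochondrial reads left out of the scaling, 22 rose and 3 fell of the signalling genes, 0 rose and 9 fell of the amino acid genes, 2 rose and 10 fell of the lipoprotein genes, 5 rose and 8 fell of the retinoid genes, 12 rose and 4 fell of the interferon genes, 4 rose and 4 fell of the acute phase genes, 5 rose and 1 fell of the clock genes, 4 rose and 3 fell of the cell cycle genes and 4 rose and 1 fell of the p53 genes. The median log2 fold changes with the deposited scaling and with that one were 0.28 and 0.67 for the signalling genes, -0.63 and -0.24 for the amino acid genes, -0.74 and -0.35 for the lipoprotein genes, -0.53 and -0.15 for the retinoid genes, -0.13 and 0.26 for the interferon genes, -0.69 and -0.31 for the acute phase genes, 0.11 and 0.50 for the clock genes, -0.15 and 0.24 for the cell cycle genes and -0.24 and 0.15 for the p53 genes. The part of the RNA measures in these differences was not tested.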
